A study of Mus musculus with 6 samples.

Results

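T cell receptor signalling and identity genes were described in RNA of freshly isolated mouse spleen dendritic cells: 38 genes chosen by symbol (CD3 chains, co-receptors, proximal signalling proteins and T lineage factors), of 23420 gene symbols counted. All 38 were found in the count files, and all 38 passed the filter on low counts, with 14388 genes tested in all. The 2 groups were TBK1-DKO (3 libraries) and wild type (WT, 3 libraries), all of strain C57BL/6. The age of the mice is given as 8 weeks in the study's design text and protocol and as 10 weeks in the sample characteristics, for both groups alike, with no treatment named. What DKO stands for, the alleles, any Cre line, the purification of the cells and the number of animals behind a library are not stated in the sources used here. Since nothing says that each library is a different mouse, the p-values cover only how these samples vary, in part perhaps for technical reasons.

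The T cell receptor recognises peptide on MHC molecules but has no signalling tail of its own, and passes its signal through the CD3 delta, epsilon and gamma chains and the zeta chain. The kinase LCK, held at the CD4 or CD8 co-receptor, phosphorylates tyrosine motifs in these tails, ZAP70 docks on them, and the scaffold LAT then gathers adaptors that lead to calcium, protein kinase C and integrin activation. Naive T cells are known for IL-7 receptor, LEF1 and TCF1, whereas activated and regulatory T cells carry receptors such as OX40, GITR, ICOS and CTLA-4, and regulatory cells the factor FOXP3. Spleen dendritic cells make no T cell receptor themselves, but they lie among T cells and touch them.

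Between 45018389 and 47349648 reads fell in genes in the TBK1-DKO libraries, against 31077585 to 36145508 in WT, so the TBK1-DKO libraries were deeper without overlap. The libraries were less alike in some pairs than in others: TBK1-DKO 2 stood apart from TBK1-DKO 1 and 3 (chi-square over genes divided by its degrees of freedom, 38.3) and WT 1 from WT 2 (13) and WT 3 (14.5), whereas the remaining pairs gave 2.47 and 2.62. TBK1-DKO 2 deviated with transcript length (Spearman rho -0.598 across 14263 genes, which are not independent replicates) and WT 1 with GC content (rho -0.542). The level of Tbk1 was 83.7, 78.8 and 83.8 counts per 1000000 gene reads (CPM) in TBK1-DKO libraries against 91.7, 80.5 and 83.4 CPM in WT, which does not check the labels, since an allele lacking part of a gene can keep most of its reads. Of 10 conventional dendritic cell genes 2 rose, 4 fell and 4 were not called; among them Itgax (CD11c) fell to 342 ± 10.6 CPM in TBK1-DKO libraries against 395 ± 17.8 CPM in WT (SD, n = 3 each).

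Transcripts of all 4 CD3 chains and of 7 of 11 proximal signalling genes fell in TBK1-DKO libraries, with Cd3e at 0.75 times its WT level. The test was not passed by 6 of 7 co-stimulatory and inhibitory receptor genes and 6 of 7 lineage factors. Without overlap, however, 5 of the 7 lineage factors were lower in TBK1-DKO libraries and 2 higher, against 20.0% and 20.9% of all genes. The difference between the roles was not tested. Of the 38 genes, 17 fell, 2 rose (Ubash3a and Tnfrsf4) and 19 were not called, a call being an adjusted p under 0.05 in the quasi-likelihood test of edgeR, adjusted by Benjamini-Hochberg over the whole table. Among all genes tested 23.6% were called, 13.7% up and 9.90% down. The median log2 fold change (TBK1-DKO over WT) was -0.26 over the 38 genes and 0.00 over all genes. In 23 of the 38 every TBK1-DKO library was below every WT library, and in 4 (Tcf7, Foxp3, Ubash3a and Tnfrsf4) every one was above, where 20.0% and 20.9% of all genes did so. Summed over the 38 genes, the level was 1309 to 1338 CPM in TBK1-DKO libraries and 1510 to 1550 CPM in WT. Without TBK1-DKO 2 and WT 1, 24 genes fell and 3 rose; the added falls were Cd2, Cd27, Zap70, Bcl11b, Gata3, Tnfrsf18 and Satb1 and the added rise Tcf7. Over all genes, calls in that fit numbered 3500 up and 3397 down of 14456, against 1978 and 1424 of 14388 with all 6 libraries. The fit keeps the 2 most alike libraries of each group (chi-square over degrees of freedom, 2.47 and 2.62). Its p-values thus rest on a narrower spread. With offsets for transcript length and GC content, chosen after the data were seen, 23 fell and 2 rose, and over all genes 2446 were up and 2758 down. In bulk RNA, fewer T cells in the isolate, less of these transcripts per T cell and fewer reads from other cells cannot be told apart.

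**Figure D1:**
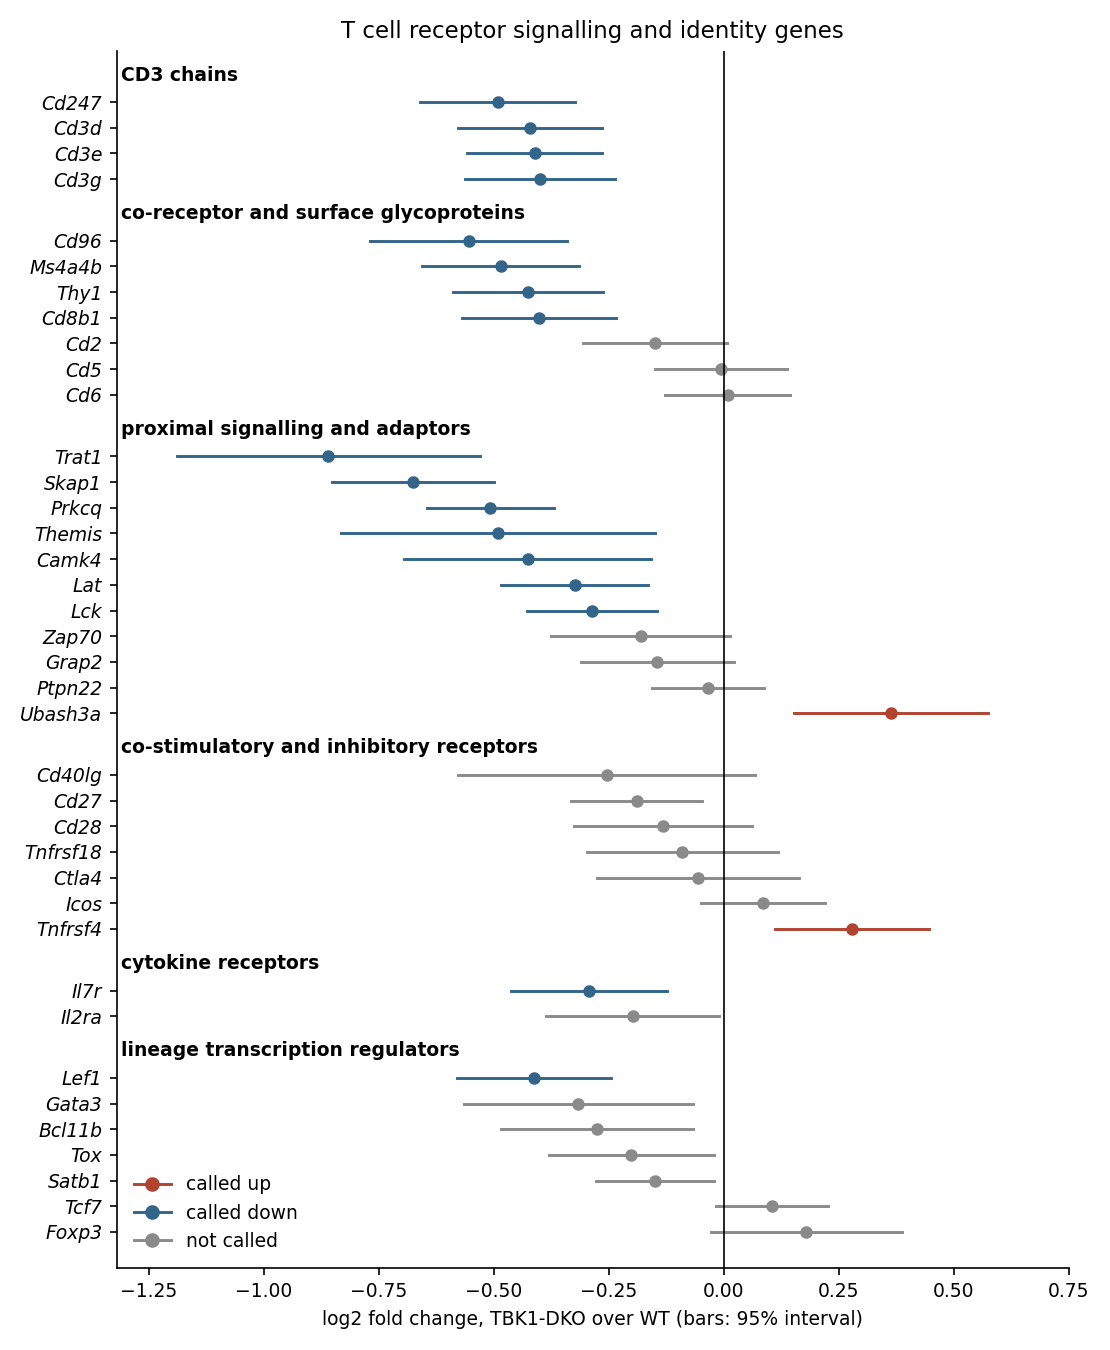
Log2 fold changes of the 38 genes (TBK1-DKO over WT, points) with 95% intervals (bars), grouped by role; blue genes fell, red genes rose and grey genes were not called. All 4 CD3 chains lie left of 0, and Ubash3a (0.36) and Tnfrsf4 (0.28) are the genes called to the right of it.

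Scaled per kilobase of transcript, so that genes can be compared, the highest levels were those of Cd2, an adhesion receptor (64.8 CPM per kilobase in TBK1-DKO libraries and 72.1 in WT), Ptpn22, a phosphatase that restrains LCK (49.5 and 50.9), Lck (48.0 and 58.7) and Tcf7 (43.6 and 40.7). Cd3g stood at 27.9 CPM per kilobase in TBK1-DKO libraries and 36.9 in WT, and the lowest member, Trat1, at 0.37 and 0.67. On the same scale Itgax stood at 84.6 CPM per kilobase in TBK1-DKO libraries and 97.6 in WT. Several members are also transcribed outside T cells, Cd2 and Cd96 in NK cells and Ptpn22 and Grap2 in other blood cells among them, so their reads need not come from T cells.

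The CD3 chains carry the tyrosine motifs that LCK phosphorylates, and all 4 fell. Cd3e, the epsilon chain that pairs with both delta and gamma, had 25.0, 24.0 and 24.4 CPM in the TBK1-DKO libraries, in the order of their numbers, against 30.9, 33.6 and 33.5 CPM in WT. Its highest TBK1-DKO library was thus well below its lowest WT library, with a log2 fold change of -0.41 (SE 0.07; adjusted p = 0.0013, edgeR quasi-likelihood, Benjamini-Hochberg). Cd3d, the delta chain, stood at 23.7, 27.0 and 25.5 CPM against 33.3, 35.4 and 33.7 CPM in WT. Cd3g, the gamma chain, stood at 27.3, 31.2 and 27.0 CPM against 38.8, 38.1 and 36.3 CPM in WT. Neither overlapped between the groups, and TBK1-DKO 2 was the highest of its group for both. Cd247, which encodes the zeta chain, stood at 21.8, 23.6 and 22.5 CPM against 35.2, 30.9 and 29.7 CPM in WT, with WT 1 the highest library. The log2 fold changes were -0.42 for Cd3d, -0.40 for Cd3g and -0.49 for Cd247, with adjusted p-values of 0.00171, 0.00293 and 0.00107 (edgeR quasi-likelihood, Benjamini-Hochberg). Of the 5329 exon bases of Cd247, 3007 are also exonic in Pou2f1, and reads in that stretch may be left out or split, whereas the other 3 chains share no exon bases with another counted gene. All 4 calls held under each of the 20 alternatives tried, with log2 fold changes between -0.46 and -0.40 for Cd3e and between -0.55 and -0.42 for Cd247.

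**Figure D2:**
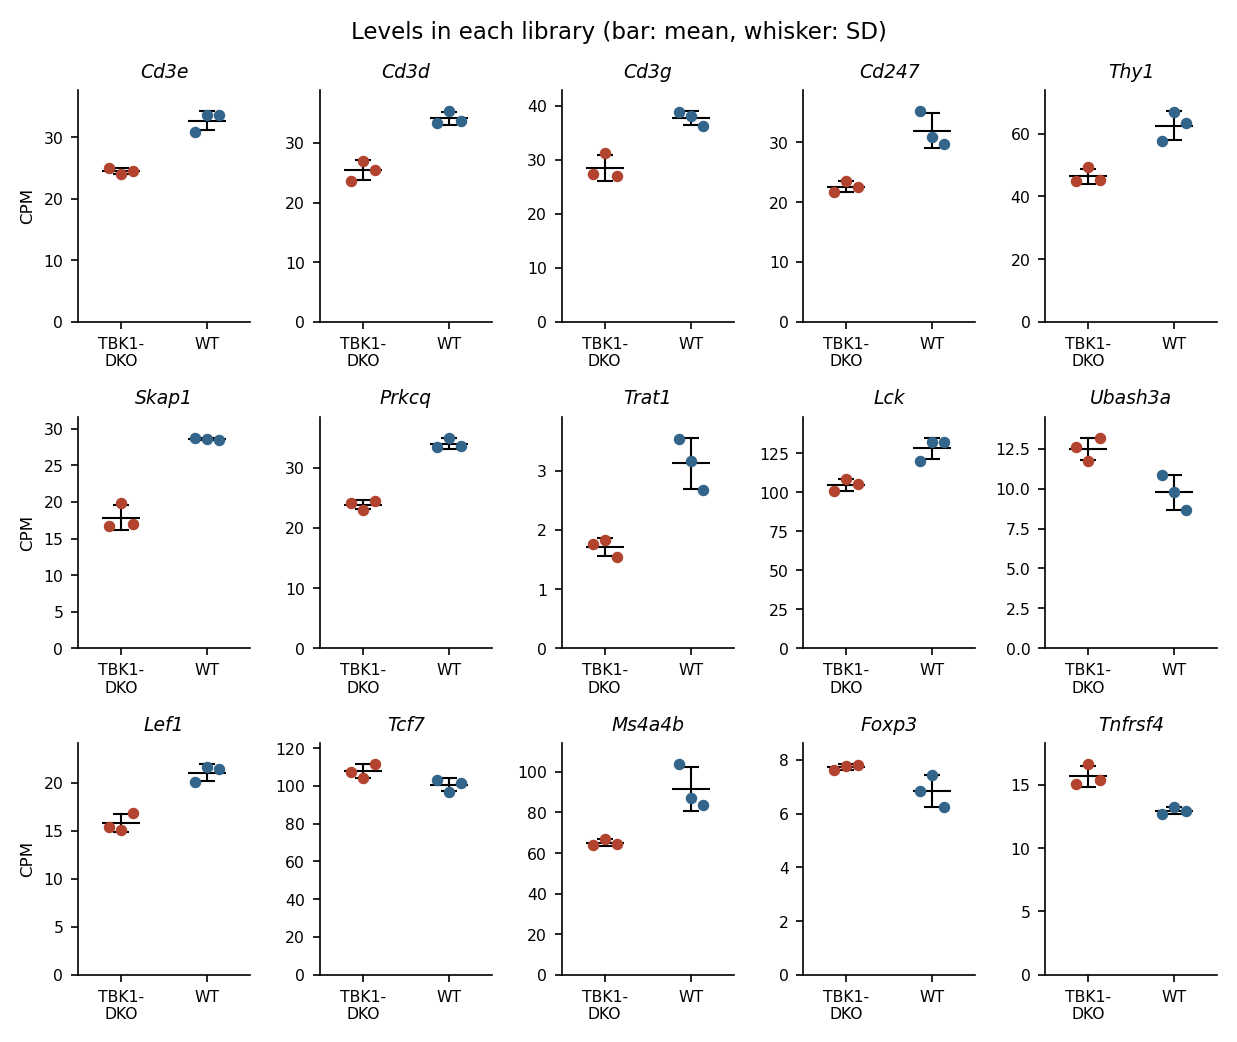
CPM of 15 of the 38 genes in each of the 3 TBK1-DKO libraries (red, left) and the 3 WT libraries (blue, right), with the mean (bar) and SD (whisker); every axis starts at 0. Cd3e, Skap1 and Prkcq show groups far apart relative to their spread, and Foxp3 and Tcf7 groups that lie close together.

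The genes of Cd3g, Cd3d and Cd3e are neighbours on chromosome 9 (GRCm38): Cd3g at 44969572 to 44980431 on the minus strand, Cd3d at 44981786 to 44987339 on the plus strand and Cd3e at 44998740 to 45009627 on the minus strand. The starts of Cd3d and Cd3g lie 1355 bases apart and point away from each other. These 3 genes fell together, so the 250 bases before their starts are shown beside those of the 2 genes that rose, Ubash3a on chromosome 17 and Tnfrsf4 on chromosome 4. The sequences are from RefSeq (GRCm38.p6), 5′ to 3′ on the strand of each gene; the RefSeq starts of Ubash3a and Tnfrsf4 lie 193 and 148 bases from those in GENCODE. Capitals mark matches, on either strand, to the letters CTTTGA searched for TCF/LEF factors, the letters TGTGGT searched for RUNX factors, the letters AGATAA searched for GATA factors and the letters AGGAAG searched for ETS factors. No match overlapped another.
Cd3e (chr9:45009612-45009861, minus strand): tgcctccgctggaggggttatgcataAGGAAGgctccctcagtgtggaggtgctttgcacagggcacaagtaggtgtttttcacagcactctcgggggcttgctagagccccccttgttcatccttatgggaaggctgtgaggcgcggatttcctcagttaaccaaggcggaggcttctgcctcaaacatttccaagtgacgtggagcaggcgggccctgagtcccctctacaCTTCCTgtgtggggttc
Cd3d (chr9:44981536-44981785, plus strand): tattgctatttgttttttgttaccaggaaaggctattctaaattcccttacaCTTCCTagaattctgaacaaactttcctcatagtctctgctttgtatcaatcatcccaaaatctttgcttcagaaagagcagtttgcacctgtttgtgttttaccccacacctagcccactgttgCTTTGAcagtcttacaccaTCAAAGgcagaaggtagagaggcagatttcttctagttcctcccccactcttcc
Cd3g (chr9:44980432-44980681, minus strand): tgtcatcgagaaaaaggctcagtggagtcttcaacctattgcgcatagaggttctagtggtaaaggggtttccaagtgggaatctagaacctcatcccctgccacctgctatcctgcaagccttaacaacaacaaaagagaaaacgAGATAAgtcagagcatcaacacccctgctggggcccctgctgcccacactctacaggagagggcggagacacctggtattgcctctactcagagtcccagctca
Ubash3a (chr17:31207816-31208065, plus strand): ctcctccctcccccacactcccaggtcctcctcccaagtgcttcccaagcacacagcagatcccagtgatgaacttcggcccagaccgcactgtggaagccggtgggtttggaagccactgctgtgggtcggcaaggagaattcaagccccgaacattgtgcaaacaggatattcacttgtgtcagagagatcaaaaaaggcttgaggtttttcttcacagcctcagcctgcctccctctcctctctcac
Tnfrsf4 (chr4:156013445-156013694, plus strand): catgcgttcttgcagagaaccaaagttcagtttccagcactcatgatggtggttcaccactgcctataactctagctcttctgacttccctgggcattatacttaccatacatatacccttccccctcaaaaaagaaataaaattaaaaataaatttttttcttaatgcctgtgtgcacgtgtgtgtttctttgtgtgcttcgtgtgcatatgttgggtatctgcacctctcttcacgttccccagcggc
The Cd3e stretch holds 2 ETS matches, that of Cd3d 1 ETS and 2 TCF/LEF matches and that of Cd3g 1 GATA match, while the stretches of Ubash3a and Tnfrsf4 hold none of the 4. A link between matches and calls was not tested. Ubash3a holds 1 GATA match in the 50 bases after its start. Among other genes that fell, Cd247, Lck, Lat, Il7r, Trat1, Prkcq and Cd96 hold some of the 4 motifs in windows of 300 bases. Lef1, Themis and Ms4a4b, which also fell, hold none. Of the genes not called, Cd5, Cd27, Ctla4, Zap70, Bcl11b, Il2ra, Ptpn22 and Satb1 hold some in such windows. Tcf7, Gata3, Foxp3, Tnfrsf18 and Grap2, not called either, hold none. Over windows from 250 bases before to 50 after the start, which RefSeq gave for 28 of the 38 genes, AGGAAG was in 14 of the 28 windows, against 35.4% of all 32851 windows. CTTTGA was in 25.0% against 16.0%, TGTGGT in 17.9% against 16.8% and AGATAA in 7.14% against 11.2%. For each of the 28 genes the 1 window nearest the GENCODE start was taken, whereas the 32851 hold every window given. The median distance to the GENCODE start was 16.5 bases. It was 50889 bases for Grap2, 22025 for Ctla4, 11434 for Gata3 and 6032 for Foxp3. These counts describe letters in a window and are not a sign of a bound factor. No window was matched for Cd8b1, Cd6, Cd2, Cd28, Icos, Skap1, Thy1, Cd40lg, Tox and 1 further gene.

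Among the co-receptor and surface glycoprotein genes, 4 of 7 fell and 3 were not called. Cd8b1, the beta chain of the CD8 co-receptor, stood at 31.4, 34.7 and 29.8 CPM in TBK1-DKO libraries against 45.5, 41.3 and 40.5 CPM in WT. Thy1, the glycoprotein that marks mouse T cells, stood at 44.9, 49.3 and 45.2 CPM against 57.6, 66.8 and 63.4 CPM in WT. Cd96, a nectin-binding receptor of T and NK cells, stood at 12.7, 12.7 and 11.9 CPM against 20.9, 16.1 and 18.2 CPM in WT. The groups did not overlap for any of the 3, and their log2 fold changes were -0.40 (SE 0.08), -0.43 (SE 0.07) and -0.55 (SE 0.10), with adjusted p-values of 0.00336, 0.00202 and 0.00212 (edgeR quasi-likelihood, Benjamini-Hochberg). The partner genes of the co-receptors, given for comparison, were Cd8a, which fell to 104 ± 3.59 CPM in TBK1-DKO libraries against 126 ± 3.02 CPM in WT (log2 fold change -0.27), and Cd4, at 157 ± 1.66 CPM against 166 ± 5.34 CPM (-0.07, not called). Both are also transcribed in subsets of dendritic cells. Cd5 and Cd6, scavenger-type receptors that dampen T cell receptor signals, differed little between the groups: Cd5 stood at 33.4, 36.6 and 34.8 CPM against 35.7, 36.3 and 33.6 CPM in WT, and Cd6 at 32.9, 35.2 and 33.8 CPM against 33.3, 33.5 and 34.8 CPM. The 95% intervals of their log2 fold changes ran between -0.15 and 0.14 for Cd5 and between -0.13 and 0.14 for Cd6, and the signs of both turned under some alternatives. Cd2 stood at 74.1, 80.3 and 70.0 CPM against 78.0, 86.4 and 85.0 CPM in WT and overlapped between the groups (log2 fold change -0.15, not called). Without TBK1-DKO 2 it was called at -0.23 (adjusted p = 0.0157, edgeR quasi-likelihood, Benjamini-Hochberg). That fit called 2082 of 14413 genes down, against 1424 of 14388 with all 6 libraries.

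The proximal signalling genes held both the steepest falls and a rise: 7 of 11 fell, Ubash3a rose and 3 were not called. Lck, the kinase that starts the cascade, stood at 101, 108 and 105 CPM in TBK1-DKO libraries against 120, 132 and 132 CPM in WT. Lat, the membrane scaffold, stood at 37.7, 43.0 and 38.2 CPM against 47.4, 51.8 and 50.1 CPM in WT. Both fell without overlap, by 0.29 (SE 0.06) and 0.32 (SE 0.07) on the log2 scale, with adjusted p-values of 0.00832 and 0.00852 (edgeR quasi-likelihood, Benjamini-Hochberg). Zap70, the kinase between them in the cascade, stood at 24.5, 27.4 and 26.1 CPM against 26.1, 31.1 and 31.3 CPM in WT. WT 1 lay within the TBK1-DKO range, and the gene missed the threshold (log2 fold change -0.18, SE 0.09), but passed it at -0.27 without WT 1 (adjusted p = 0.0281, edgeR quasi-likelihood, Benjamini-Hochberg).

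Skap1, an adaptor that links the receptor to integrins, stood at 16.7, 19.8 and 17.0 CPM in TBK1-DKO libraries against 28.8, 28.6 and 28.5 CPM in WT. The WT libraries were nearly equal, and each TBK1-DKO library lay far below them (log2 fold change -0.68, SE 0.08). Trat1, a transmembrane adaptor that associates with the receptor complex, stood at 1.75, 1.84 and 1.53 CPM against 3.54, 3.15 and 2.67 CPM in WT, from 69 to 84 reads per library against 90 to 114. It had the steepest fall of the 38 genes (log2 fold change -0.86, SE 0.15) at the lowest level per kilobase. Prkcq, protein kinase C theta, which drives NF-kB in T cells, stood at 24.1, 23.0 and 24.4 CPM against 33.4, 35.0 and 33.6 CPM in WT (log2 fold change -0.51, SE 0.06). The adjusted p-values of Skap1, Trat1 and Prkcq were 0.000178, 0.00205 and 0.000238 (edgeR quasi-likelihood, Benjamini-Hochberg), and none of these calls was lost under any of the 20 alternatives.

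Themis, which tunes receptor signals in thymocytes, stood at 8.57, 5.88 and 8.84 CPM in TBK1-DKO libraries against 12.7, 10.2 and 9.99 CPM in WT. Camk4, a calcium-dependent kinase gene, stood at 12.8, 9.36 and 12.7 CPM against 16.5, 16.3 and 14.3 CPM in WT. TBK1-DKO 2 was the lowest library for both, and the groups did not overlap; the log2 fold changes were -0.49 (SE 0.15) and -0.43 (SE 0.12), with adjusted p-values of 0.0426 and 0.0281 (edgeR quasi-likelihood, Benjamini-Hochberg). Without TBK1-DKO 2 and WT 1 together the values were -0.23 for Themis and -0.28 for Camk4. Both were still called, in a fit that called 3397 of 14456 genes down. Themis shares 153 exon bases with 4930519F09Rik. The Themis call was lost without WT 1, 2 or 3 (adjusted p = 0.151, 0.0662 and 0.057) and the Camk4 call without WT 1 or 2 (adjusted p = 0.0833 and 0.086, edgeR quasi-likelihood, Benjamini-Hochberg). Ptpn22 stood at 138, 130 and 139 CPM against 143, 140 and 135 CPM in WT, overlapping (log2 fold change -0.03, 95% interval -0.16 to 0.09). Grap2 (GADS), which joins LAT to the adaptor SLP-76, averaged 85.3 ± 7.90 CPM against 94.6 ± 5.63 CPM (SD, n = 3 each) and overlapped as well (-0.14, not called).

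Ubash3a encodes a phosphatase-like protein that holds back T cell receptor signalling, and it was the proximal signalling gene that rose. It stood at 12.6, 11.8 and 13.2 CPM in TBK1-DKO libraries against 10.8, 9.79 and 8.65 CPM in WT. Every TBK1-DKO library was above every WT library (log2 fold change 0.36, SE 0.09; adjusted p = 0.0191, edgeR quasi-likelihood, Benjamini-Hochberg). The call was lost without TBK1-DKO 1 or 3 or WT 2 or 3 (adjusted p between 0.059 and 0.0912, edgeR quasi-likelihood, Benjamini-Hochberg), with log2 fold changes of 0.27 to 0.36.

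Among the co-stimulatory and inhibitory receptor genes, Tnfrsf4 rose and the other 6 of 7 were not called. Tnfrsf4 (OX40), a receptor of activated and regulatory T cells, stood at 15.0, 16.6 and 15.3 CPM in TBK1-DKO libraries against 12.7, 13.2 and 13.0 CPM in WT. The groups did not overlap, and the log2 fold change was 0.28 (SE 0.08; adjusted p = 0.0226, edgeR quasi-likelihood, Benjamini-Hochberg). Leaving out TBK1-DKO 2 or 3 or any of the WT libraries ended this call (adjusted p between 0.0525 and 0.0889, edgeR quasi-likelihood, Benjamini-Hochberg), as did thinning the TBK1-DKO counts to the WT depth (0.22, adjusted p = 0.0633). Tnfrsf18 (GITR), whose gene lies 9551 bases from Tnfrsf4 on chromosome 4, stood at 16.3, 19.3 and 18.1 CPM against 17.2, 20.7 and 19.4 CPM in WT, overlapped and missed the threshold (log2 fold change -0.09, SE 0.09). Without TBK1-DKO 2 and WT 1 together it was called down at -0.24 (adjusted p = 0.00253, edgeR quasi-likelihood, Benjamini-Hochberg). That fit called 3500 genes up and 3397 down of 14456.

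Cd28, Ctla4 and Icos, which encode the co-stimulatory receptor CD28, its inhibitory relative and the inducible co-stimulator, lie in this order on chromosome 1 with gaps of 113640 and 62094 bases. Ctla4 stood at 12.0, 12.9 and 12.0 CPM in TBK1-DKO libraries against 14.5, 12.9 and 11.1 CPM in WT. Icos stood at 28.4, 29.1 and 29.2 CPM against 28.6, 26.8 and 26.7 CPM in WT. Both overlapped between the groups, as did Cd28 at 26.4 ± 2.85 against 29.0 ± 1.92 CPM (SD, n = 3 each). Their log2 fold changes were -0.06 for Ctla4, 0.09 for Icos and -0.13 for Cd28. Cd27, a TNF receptor family member of naive and memory T cells, stood at 23.4, 22.7 and 24.9 CPM against 27.5, 26.7 and 27.0 CPM in WT. Its groups did not overlap, but it missed the threshold (log2 fold change -0.19, adjusted p = 0.0566, edgeR quasi-likelihood, Benjamini-Hochberg). Without TBK1-DKO 2 it passed (adjusted p = 0.0465, edgeR quasi-likelihood, Benjamini-Hochberg), in a fit that called 2082 of 14413 genes down. Cd40lg, the ligand through which helper T cells license dendritic cells and B cells, stood at 2.49, 2.47 and 2.60 CPM against 2.99, 2.52 and 3.56 CPM in WT and overlapped (log2 fold change -0.25, SE 0.14). The number of these 7 genes called down was 0 with edgeR, DESeq2 and limma-voom alike, and 1, Cd27, at an unadjusted p under 0.05 in edgeR. Over all genes these tools called 1424, 1395 and 1416 down, and the share at the unadjusted threshold was not counted.

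The cytokine receptor genes were both lower without overlap, and 1 of them was called. Il7r, the receptor chain for the survival cytokine IL-7, stood at 44.0, 41.2 and 46.3 CPM in TBK1-DKO libraries against 59.7, 52.8 and 49.4 CPM in WT. It fell by 0.29 on the log2 scale (SE 0.08; adjusted p = 0.0185), a call lost without TBK1-DKO 1 (adjusted p = 0.054) or WT 1 (adjusted p = 0.0517, edgeR quasi-likelihood, Benjamini-Hochberg). Without TBK1-DKO 2 and WT 1 together it stood at -0.20 and was called, in a fit that called 3397 of 14456 genes down. Il2ra (CD25), the high-affinity IL-2 receptor chain of regulatory and activated T cells, stood at 11.9, 10.7 and 11.4 CPM against 13.2, 12.0 and 13.9 CPM in WT. Its lowest WT library was barely above its highest TBK1-DKO library, and the threshold was missed (log2 fold change -0.20, SE 0.08; adjusted p = 0.123, edgeR quasi-likelihood, Benjamini-Hochberg).

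Of the 7 lineage transcription regulators, Lef1 fell and 6 were not called. At an unadjusted p under 0.05 in edgeR 5 of the 7 were down, and DESeq2 called 2 down. The share of all genes at the unadjusted threshold was not counted, and DESeq2 called 1395 of all genes down. Lef1, a partner of beta-catenin in naive T cells, stood at 15.4, 15.1 and 16.8 CPM in TBK1-DKO libraries against 20.0, 21.7 and 21.4 CPM in WT. The groups lay apart (log2 fold change -0.41, SE 0.07; adjusted p = 0.00285, edgeR quasi-likelihood, Benjamini-Hochberg), and the call held under all 20 alternatives. Tcf7, which encodes the related factor TCF1, stood at 107, 104 and 112 CPM against 103, 96.6 and 102 CPM in WT. It was thus slightly higher in each TBK1-DKO library but missed the threshold (log2 fold change 0.11, SE 0.05). Without TBK1-DKO 2 and WT 1 together it was called up at 0.13 (adjusted p = 0.00127, edgeR quasi-likelihood, Benjamini-Hochberg). That fit called 3500 genes up and 3397 down of 14456. Foxp3, the factor that defines regulatory T cells, stood at 7.6, 7.76 and 7.82 CPM against 6.82, 7.44 and 6.25 CPM in WT. The groups did not overlap, but the difference missed the threshold (log2 fold change 0.18, 95% interval -0.03 to 0.39; adjusted p = 0.202, edgeR quasi-likelihood, Benjamini-Hochberg). Foxp3 shares 856 exon bases with Ppp1r3f or Ccdc22.

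Satb1, a chromatin organiser of T cells, stood at 103, 97.7 and 109 CPM in TBK1-DKO libraries against 115, 113 and 116 CPM in WT. Tox, a factor of persistently stimulated T cells, stood at 8.64, 8.42 and 9.33 CPM against 10.1, 10.1 and 10.3 CPM in WT. Neither overlapped and neither was called (log2 fold changes -0.15 and -0.20). Bcl11b, needed for T lineage commitment, stood at 21.6, 18.2 and 23.1 CPM against 23.8, 26.2 and 26.3 CPM in WT, and Gata3, of the T helper 2 programme, averaged 6.70 ± 0.73 CPM against 8.36 ± 0.80 CPM (SD, n = 3 each). Both missed the threshold, with log2 fold changes of -0.28 and -0.32 and adjusted p-values of 0.0589 and 0.0674 (edgeR quasi-likelihood, Benjamini-Hochberg). Leaving out TBK1-DKO 3 gave 0.0412 for Bcl11b and 0.0463 for Gata3, and leaving out WT 1 gave 0.0483 and 0.0424. DESeq2 called Bcl11b (adjusted p = 0.0404).

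The naive and resting genes among the 38 were set beside the activated and regulatory ones. Of the 6 naive and resting genes (Lef1, Tcf7, Il7r, Satb1, Cd27 and Ms4a4b), 3 fell and 3 were not called, with a median log2 fold change of -0.24. Ms4a4b, a membrane protein of resting T cells not yet given, stood at 63.8, 67.0 and 64.4 CPM in TBK1-DKO libraries against 104, 87.1 and 83.6 CPM in WT and fell by 0.49 (SE 0.08; adjusted p = 0.00124, edgeR quasi-likelihood, Benjamini-Hochberg). Of the 8 activated and regulatory genes (Foxp3, Il2ra, Ctla4, Icos, Tnfrsf4, Tnfrsf18, Cd40lg and Tox), Tnfrsf4 rose and 7 were not called, with a median of -0.07. In this second list edgeR, DESeq2 and limma-voom each called 0 genes down, and 2 were down at an unadjusted p under 0.05 in edgeR (Il2ra and Tox). In the naive and resting list each tool called 3 genes down, and 5 of 6 were down at the unadjusted threshold. Over all genes edgeR, DESeq2 and limma-voom called 1424, 1395 and 1416 down. No share of all genes was counted at the unadjusted threshold, so the counts there have no background. The 24 remaining genes had a median of -0.36, with 14 down and 1 up. The difference between the lists was not tested. The summed level of the naive and resting genes was 348 to 373 CPM in TBK1-DKO libraries against 398 to 429 CPM in WT, and that of the activated and regulatory genes 102 to 107 CPM against 104 to 106 CPM. Without TBK1-DKO 2 and WT 1, 5 naive and resting genes were called down and 1 up. Of the activated and regulatory genes 1 was called down and 1 up. Over all genes, 3397 of 14456 were called down in that fit and 3500 up. The medians were -0.18 for the naive and resting list and -0.10 for the other. The median of the activated and regulatory list was -0.03 without TBK1-DKO 1, -0.14 without TBK1-DKO 2 and -0.11 without WT 3, beside -0.24, -0.23 and -0.28 for the naive and resting list.

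The same genes were then expressed as reads per 1000 reads of Cd3d, Cd3e and Cd3g in the same library, a ratio that library scaling does not touch. The 3 CD3 genes together had 3598, 3764 and 3466 reads in TBK1-DKO libraries and 3200, 3870 and 3495 reads in WT, or 76.0, 82.3 and 77.0 CPM against 103, 107 and 104 CPM. Because this denominator is itself lower in TBK1-DKO libraries, most genes are higher on this scale: for 70.5% of all genes tested every TBK1-DKO library was above every WT library, for 2.65% every one was below, and the median ratio of group means was 1.33. Of the 35 members outside the denominator, 17 were above without overlap, 3 (Skap1, Trat1 and Prkcq) were below and 15 overlapped, with a median ratio of 1.16.

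Foxp3 stood at 100, 94.3 and 102 reads per 1000 CD3 reads in TBK1-DKO libraries against 66.3, 69.5 and 60.4 in WT. The means were 98.6 ± 3.82 against 65.4 ± 4.63 (SD, n = 3 each), a ratio of 1.51. The exact two-sided permutation p was 0.1, the lowest possible with 20 rearrangements of 6 libraries. Any gene without overlap gives this p, and on this scale 70.5% of all genes were above and 2.65% below without overlap. The p therefore says nothing particular to Foxp3. Tnfrsf4 stood at 198, 202 and 199 reads per 1000 CD3 reads against 123, 124 and 125 in WT, a ratio of 1.61. Ubash3a stood at 166, 143 and 171 against 105, 91.5 and 83.5, a ratio of 1.71. These 3 ratios exceed the median of 1.33 over all genes, as do 1.43 for Tcf7, 1.41 for Icos and 1.34 for Cd6.

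Ctla4 (1.28), Tnfrsf18 (1.25), Satb1 (1.20), Cd27 (1.17) and Tox (1.16) were above without overlap but below the median ratio of all genes. Lef1 stood at 203, 183 and 218 reads per 1000 CD3 reads in TBK1-DKO libraries against 194, 202 and 207 in WT, with equal means of 201, and the groups overlapped. Cd8b1 (407 ± 18.5 against 406 ± 31.1), Thy1 (ratio 0.99), Camk4 (0.99), Ms4a4b (0.95) and Cd247 (0.94) overlapped likewise on this scale. Skap1, at 220, 241 and 221 against 280, 267 and 275 in WT, was lower on this scale as well (ratio 0.83), as was Trat1 (0.73). By list, 3 of 6 naive and resting genes were above and 3 overlapped, with a median ratio of 1.13, and 6 of 8 activated and regulatory genes were above and 2 overlapped, with a median of 1.26. Both medians lie below that of all genes.

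**Figure D3:**
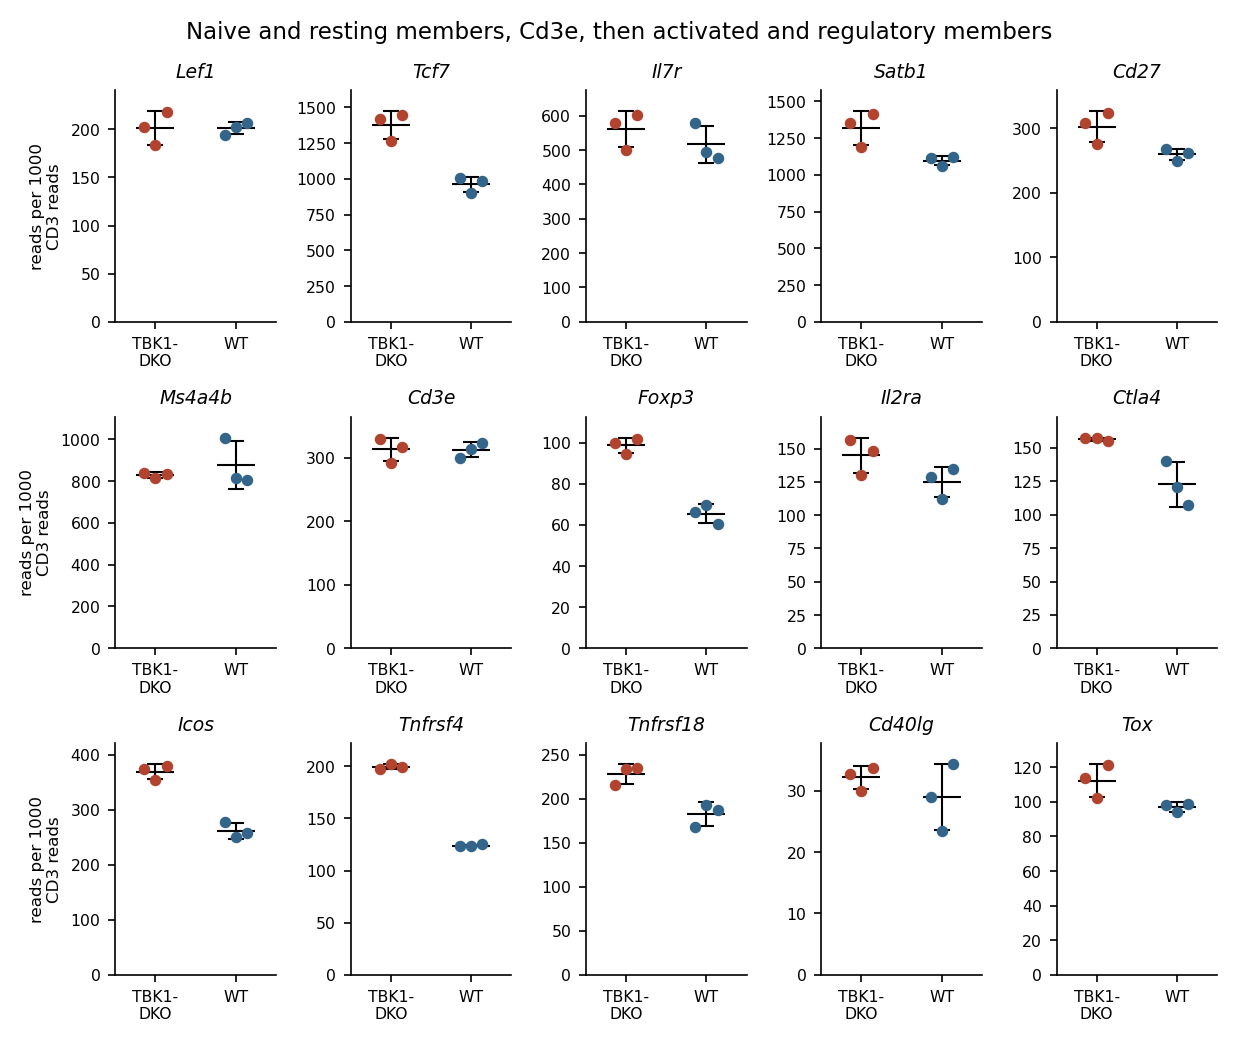
Reads per 1000 reads of Cd3d, Cd3e and Cd3g in each of the 3 TBK1-DKO libraries (red, left) and the 3 WT libraries (blue, right) for the naive and resting genes, Cd3e, and the activated and regulatory genes, with mean (bar) and SD (whisker). Foxp3, Icos, Tnfrsf4 and Tcf7 lie clearly higher in TBK1-DKO libraries and Lef1 does not; over all genes the median ratio is 1.33.

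Other genes of the pathway fell as well, in the lists given next, which were chosen with results of these data known. Of 30 further T cell receptor pathway genes, 14 fell and 16 were not called (median log2 fold change -0.17), among them the TEC kinase gene Txk (-0.81), Cd226, an activating receptor gene (-0.94), and Gimap3 (-0.32), all of which fell. Of 10 further naive and resting genes, 5 fell, including Actn1 (-0.41), Igfbp4 rose (0.23) and 4 were not called. Of 25 further activated and regulatory genes tested, 6 fell, 2 rose and 17 were not called. Those that fell included Ifng, at 4.04 ± 0.15 CPM in TBK1-DKO libraries against 8.16 ± 0.49 CPM in WT, Cd69, an early activation marker, at 33.3 ± 0.79 against 59.0 ± 2.46 CPM, and Itgae (CD103), at 10.9 ± 0.45 against 19.2 ± 1.60 CPM (SD, n = 3 each). Il21, a cytokine of follicular helper T cells, rose, with 60, 76 and 66 reads in TBK1-DKO libraries against 11, 5 and 7 in WT, or 1.46 ± 0.20 against 0.23 ± 0.11 CPM (log2 fold change 2.67, SE 0.29). Tigit, an inhibitory receptor gene of regulatory, follicular and NK cells, rose by 0.58 (SE 0.15). Ifng, Cd69 and Itgae are also transcribed by NK cells or dendritic cells. The falls of Txk and Cd226 lay outside the range of the CD3 chains (-0.49 to -0.40) and within that of the tested NK cell genes (-0.95 to -0.17). Which cells these reads come from was not tested.

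Markers of other cell types moved in the same libraries. Of 12 tested NK cell genes 11 fell (median log2 fold change -0.49), and their summed level was 393 to 409 CPM in TBK1-DKO libraries against 537 to 614 CPM in WT, with Klra8 at 0 reads throughout, where a count of 0 leaves room for up to 3 reads per library. Of 12 B cell genes 6 fell (median -0.27; 4050 to 4149 CPM against 4840 to 4890 CPM), and of 8 plasmacytoid dendritic cell genes 7 fell (median -0.34; 999 to 1007 CPM against 1241 to 1304 CPM). Of 7 tested macrophage genes 6 fell (median -0.53; 3262 to 3632 CPM against 4682 to 5090 CPM), and of 7 tested mature dendritic cell genes 4 rose and 3 were not called (median 0.70; 824 to 903 CPM against 612 to 647 CPM). All 7 tested neutrophil genes rose (median 1.30; 5609 to 6453 CPM against 2301 to 2614 CPM), as did the 4 tested erythroid genes (median 0.76). Of 4 tested innate lymphoid genes, Ffar2 (0.87) and Il1rl1 (0.56) rose and 2 were not called; Il1rl1 is also known from regulatory T cells and Ffar2 from neutrophils. The CD3 chains thus fell in libraries in which the summed levels of the NK, B cell and macrophage lists were lower as well, and the part of the makeup of the isolated cells in the results above was not tested. With the listed neutrophil and erythroid genes removed before scaling (14377 genes tested against 14388), 17 of the 38 genes fell and 2 rose. That run took out only the genes of these 2 lists and left all other reads of such cells in place. It therefore does not test the part of those cells.

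**Figure D4:**
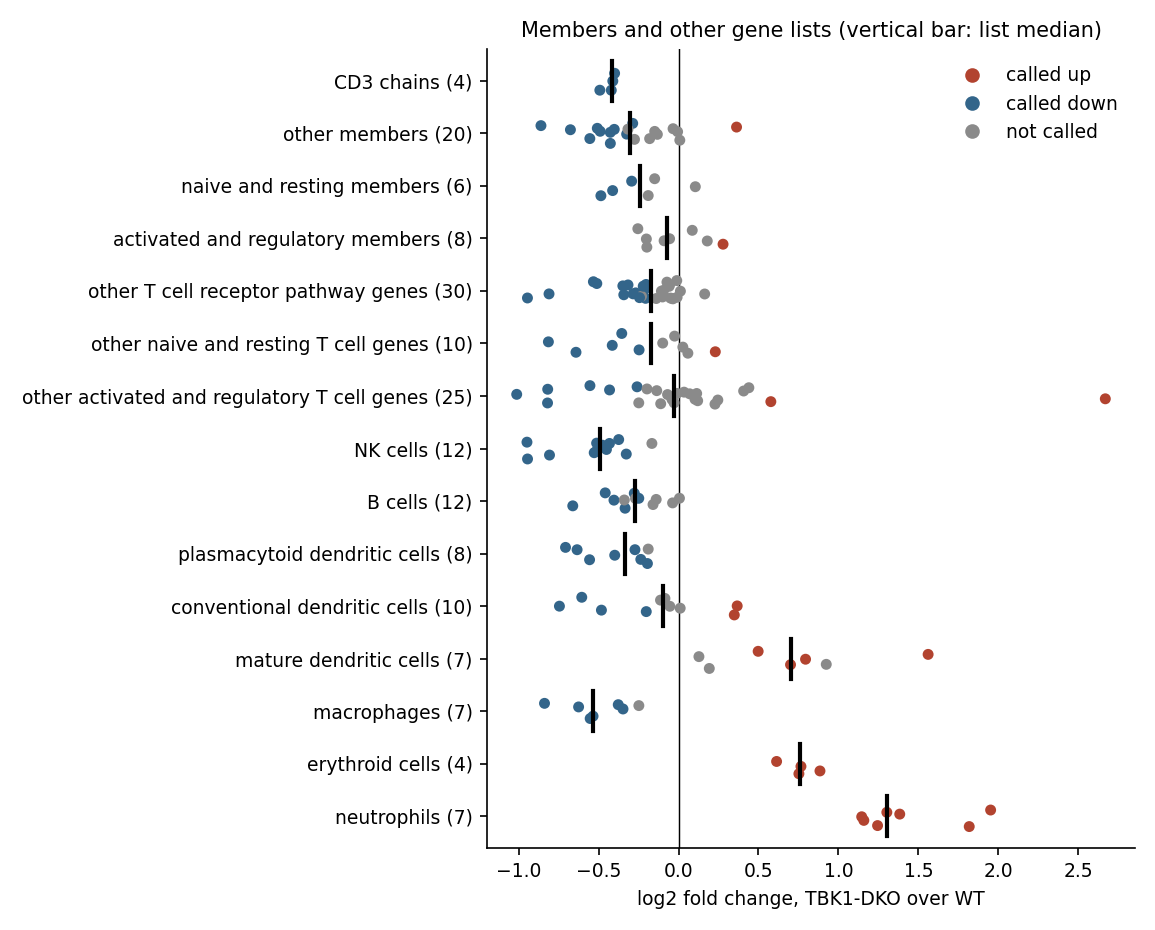
Log2 fold changes (TBK1-DKO over WT) of single genes in the members' lists and in lists of related T cell genes and of other cell types, with the number of tested genes in parentheses and each list's median as a vertical bar. The median of the CD3 chains (-0.42) lies between those of the plasmacytoid dendritic cell genes (-0.34) and the NK cell genes (-0.49), and the activated and regulatory lists straddle 0.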

How the data were processed

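RNA sequencing counts of 6 libraries, 3 labelled TBK1-DKO and 3 WT, were grouped by their titles and genotype labels. The deposited values are raw whole-number read counts per gene symbol, 1 file per library. The tools named per the submitters' processing notes are HTSeq, DESeq2, TopHat2 and TopHat, with the build mm10; versions, annotation and strand setting are not stated in the sources used here. Without a strand setting, reads of a gene and an overlapping antisense gene may not be told apart, and HTSeq by default leaves out reads that overlap several genes. The 5 summary rows that name no gene held 9.96% to 10.7% of records in TBK1-DKO libraries and 8.20% to 8.67% in WT and were left out.

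Counts were tested with edgeR 4.0.16 in R 4.3.3: filterByExpr (minimum count 10), TMM factors of 0.996 to 1.012, and the robust quasi-likelihood test of TBK1-DKO against WT without covariates, with Benjamini-Hochberg adjustment over 14388 genes and calls at an adjusted p under 0.05. CPM are counts per 1000000 gene reads, intervals are 95%, and per-kilobase levels use the longest principal transcript. Alternatives used DESeq2 1.42.0, limma-voom (limma 3.58.1), other scalings and filters, a replicate block, left-out libraries, and, chosen after seeing the data, length and GC offsets and thinned counts. Replicate numbers come from the titles. The fit was tested on simulated data. Symbols were matched to GENCODE M21 on GRCm38 (21777 directly, 1277 by synonym, 366 unmatched), and promoter windows to RefSeq by symbol.

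The members, the lists and the tests were chosen with earlier results of these data known. Values in every library were given for the CD3 chains, the naive and activated lists, every member called, and the 2 members of each role with the highest level per length, while other genes were named from the lists, up to 4 per list with the smallest p or where a member is set beside them. Igfbp4, Tigit and Klra8 were chosen after their values were seen.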

Additional observations from a re-analysis of the deposited data

How the results depend on the processing

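Over 20 alternative settings the 38 genes gave 760 log2 fold changes, of which 693 kept direction and side of the threshold, 17 lost a call, 38 gained one and 12 changed sign; 21 genes kept both throughout. The genes called down numbered 15 to 19 when 1 library was left out, 18 with DESeq2, 17 with limma-voom, 23 with length and GC offsets, 24 without TBK1-DKO 2 and WT 1, and 2 at 1.5-fold or more. Those called up numbered 0 to 1 with 1 library left out, 1 with TBK1-DKO counts thinned to WT depth, and 0 at an adjusted p under 0.01 and at 1.5-fold or more. Naive and resting genes called down numbered 5 without TBK1-DKO 2 and WT 1 and 0 at 1.5-fold or more; without those 2 libraries 1 such gene was called up and 1 activated or regulatory gene down. Activated and regulatory genes called up numbered 0 to 1 with 1 library left out, 0 with thinned counts, and 0 at an adjusted p under 0.01 and at 1.5-fold or more. Over all genes, 3500 were called up and 3397 down without TBK1-DKO 2 and WT 1. At an adjusted p under 0.01 these numbers were 1270 and 726, and at 1.5-fold or more 808 and 464. With length and GC offsets 2446 of all genes were up and 2758 down. With 1 library left out, 1336 to 2270 of all genes were up and 972 to 2082 down. DESeq2 called 1853 up and 1395 down, limma-voom 1943 and 1416, and the fit to thinned counts 1795 and 1519. The sign of Cd6, which was not called, turned to -0.014 with upper-quartile factors, -0.0050 with no filter, -0.050 without TBK1-DKO 2 and WT 1, -0.089 with offsets and -0.035 with thinned counts. With 1 library left out, Cd6 ranged from -0.042 to 0.032, Cd5 from -0.064 to 0.027 and Ctla4 from -0.16 to 0.029. The cause was not tested for any of these.

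Libraries numbered 1 and those numbered 2 deviated together (correlations 0.182 and 0.149) but those numbered 3 did not (-0.065), and TBK1-DKO 3 correlated best with WT 1 (0.121), so the numbers were not taken as pairs. With a replicate block, 19 of the 38 genes were called down, Bcl11b and Gata3 being added (adjusted p = 0.0148 and 0.0206, edgeR quasi-likelihood, Benjamini-Hochberg), and 2 up, against 1773 and 2313 of all genes. With length and GC offsets and the replicate block together, 24 of the 38 genes were down, 5 of them naive and resting, 2860 of all genes were down, and Cd6 stood at -0.089. Foxp3 per 1000 CD3 reads differed by 30.8 to 35.4 between the group means with 1 library left out. With all libraries, 70.5% of all genes tested were higher without overlap on that scale. At 69 to 84 reads per TBK1-DKO library Trat1 is the most thinly counted member.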
